A study of Homo sapiens with 4 samples.

Results

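The 78 protein-coding genes whose symbols begin with MRPL or MRPS followed by a number, the mitochondrial ribosomal protein genes, were taken from a table of 58735 genes measured by RNA-seq in 2 human colorectal cancer cell lines. The rule uses name and biotype and no measured value. HCT116 and LOVO were each sequenced in both growth forms, adherent and as spheroids, with 1 library per form (4 libraries in all) and a wild-type genotype throughout. Where 4 values follow each other they stand in the order HCT116 adherent, HCT116 spheroids, LOVO adherent, LOVO spheroids, and where 2 values of a line follow each other the adherent one comes first. Adherent cells grew untreated in RPMI-1640 with 10% fetal bovine serum. Spheroids formed in ultralow attachment dishes in serum-free DMEM/F12 with B27, N2, bFGF and EGF in the presence of oxaliplatin, and the study took them as a model of chemoresistant cancer stem cells. The labels give the treatment as 1 mg/ml without a drug name, whereas the study's text states the dose in μg/ml, so the dose is uncertain. The labels also list the serum medium for all samples, and the serum-free medium is taken from the study's methods. Growth form, medium and drug changed together, so their parts in a difference cannot be told apart. The libraries were made from bulk RNA, in which fewer cells of a type and less RNA per cell cannot be told apart either.

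The mitochondrial ribosome translates the few mRNAs that mitochondrial DNA encodes, all of them for subunits of the respiratory chain and the ATP synthase. Its rRNAs come from mitochondrial DNA, but every one of its proteins is encoded in the nucleus, made in the cytosol and imported. Many of these proteins have a counterpart in the bacterial ribosome, whereas others were added in the course of mitochondrial evolution, and the genes are scattered over the genome. Of the 78 genes, 51 encode proteins of the large subunit, 2 of which carry MRPS names (MRPS18A and MRPS30), and 26 encode proteins of the small subunit. The remaining one, MRPS36, was named as a ribosomal protein and is now known as a component of the 2-oxoglutarate dehydrogenase complex. Proteins without a bacterial counterpart number 31. The genes lie on 21 chromosomes, with at most 8 on any one of them.

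The reads assigned to genes numbered from 15483569 to 20429147 per library. A level is given as FPKM, a count of fragments scaled to gene length and to a library size. That size was 0.998, 1.085, 0.907 and 1.053 times the reads assigned to genes. It was above these reads in both spheroid libraries and below them in both adherent ones. Spheroid differences and their counting intervals rest on this scaling and lie lower than differences in shares of reads would. Differences are on the log2(FPKM + 1) scale over the 14429 genes whose mean FPKM reached 1, which included 77 of the 78 members. With 1 library per condition, a difference within a cell line had no replicate check. Intervals are exact 95% intervals of the log2 ratio from the reads and cover counting error only. Markers of colorectal epithelium did not go with the labels in all libraries. In HCT116, adherent and spheroids, EPCAM was at 85.6 and 79.3 FPKM and CDH1 at 31.1 and 31.1. In the libraries labelled LOVO, EPCAM was at 0.930 and 1.499, CDH1 at 0.117 and 0.00805, and CDX2 had 0 reads in both (3.84 and 3.12 FPKM in HCT116), whereas the keratins KRT8 (189 and 81.6) and KRT18 (122 and 98.8) were present. KRT19 was at 808 and 543 in HCT116 against 14.9 and 4.85 in LOVO, and KRT20 at 0.930 and 7.45 against 0.0302 and 0.0538. VIL1, CDX1 and LGALS4 were at 0.0946 or less in every library. Of 8 markers of fibroblasts, blood and endothelial cells, COL1A1 was at 5.51 to 15.5 FPKM in the 4 libraries, COL3A1 (5.13) and PECAM1 (6.35) passed 1 in LOVO spheroids only, and the other 5 were at 0.332 or less in every library. What these LOVO values owe to the identity or state of the cells was not tested, and HCT116 values stand on their own below.

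The mitochondrial ribosomal protein genes took 0.369%, 0.318%, 0.449% and 0.364% of all reads. Their median level was 16.3, 13.0, 21.0 and 13.5 FPKM. The share was thus lower in spheroids of both lines and highest in adherent LOVO cells. MRPS34, a small subunit protein without a bacterial counterpart, had the highest mean level, at 95.4, 72.7, 144 and 109 FPKM. MRPL14, a core protein of the large subunit, followed with 40.4, 43.4, 83.4 and 80.4, and MRPL51 with 60.0, 39.2, 74.6 and 39.6. Across the 77 members, log2 levels in spheroids correlated with those in adherent cells with r = 0.940 for HCT116 and r = 0.886 for LOVO, and the 6 pairs of libraries ranged from 0.764 to 0.940. These are correlations across genes, which are not independent replicates. The dot plot of levels shows each gene in the 4 libraries.

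**Figure D1:**
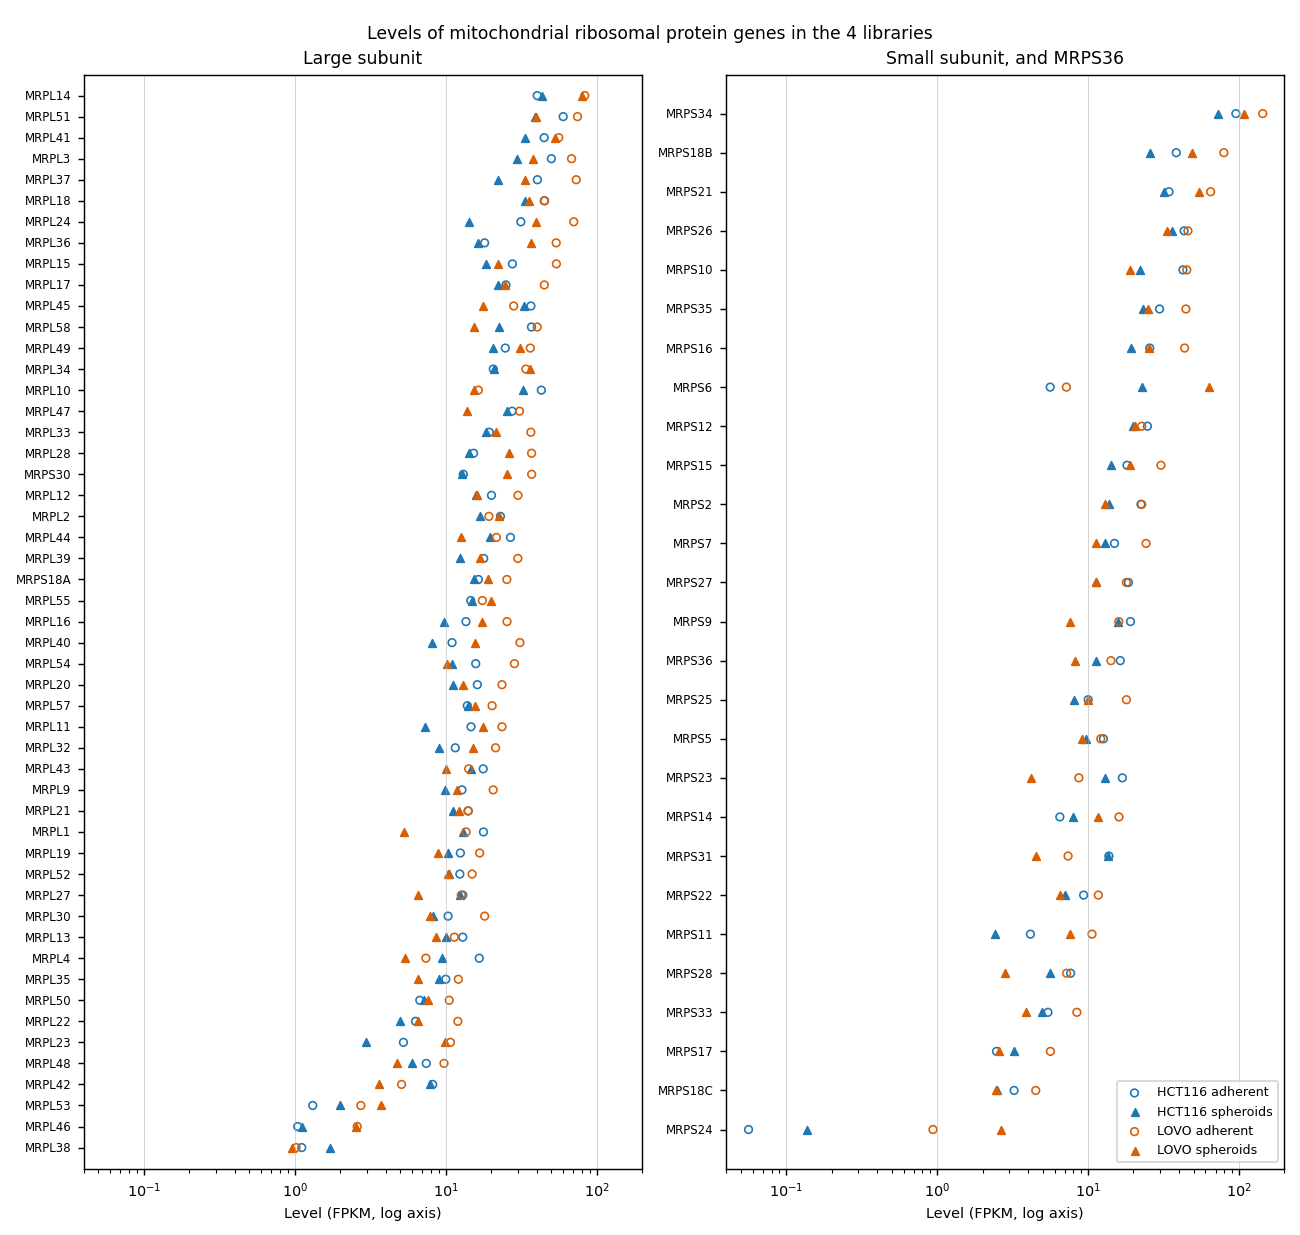
Each gene's level in FPKM (log axis) in the 4 libraries, 1 point per library, with large subunit genes on the left and small subunit genes and MRPS36 on the right, sorted by mean level. For most genes the spheroids (triangles) lie left of the adherent cells (circles) of the same line, MRPS6 is the clear exception, and MRPS24 is lowest at 0.0563 to 2.66 FPKM.

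Few members had low values. The 3 lowest of those compared were MRPL38 (1.11, 1.72, 1.02 and 0.963 FPKM), MRPL46 (1.04, 1.11, 2.59 and 2.53) and MRPL53 (1.31, 1.99, 2.74 and 3.70). MRPS24 was at 0.0563, 0.137, 0.939 and 2.66, on 3, 6, 44 and 140 reads, and did not pass the filter. All of these genes share exonic bases on the same strand with another annotated gene, MRPL38 with 37.5% and MRPL53 with 45.2% of its exons, and MRPS24 606 bases with the readthrough gene URGCP-MRPS24, which had 0 reads in every library. How the counting treated reads that belong to 2 genes is not given in the sources used here, so the levels of these genes are uncertain. Of the 78 members, 37 share no exonic base with any other gene.

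Transcription of many mitochondrial ribosomal protein genes is known to depend on nuclear respiratory factor 1 (NRF1), on the ETS factor GABP and on YY1. RefSeq promoters, from 250 bases before to 50 after the start (GRCh38.p14), were matched for 69 members and searched on both strands. The ETS motif CCGGAAG was present in 29 member promoters (42.0%) and in 14.2% of 15842 promoters of protein-coding genes. The YY1 motif AAGATGGCG was present in 13 (18.8%) and in 2.74% of all. The NRF1 motif GCGCATGCG was in 3 (4.35%) against 2.76%, and the E-box CACGTG in 6 (8.70%) against 8.88%. The 15842 promoters were not restricted to genes that passed the level filter, which 77 of the 78 members did. Shares among promoters of expressed genes were not computed. The stretches below show such matches upstream of the RefSeq start. They are written 5′ to 3′ on the gene's strand, with the motif or its reverse complement in capitals. They are from the most abundant member (MRPS34, ETS at chr16:1773136-1773164, minus strand), 2 of those with the lowest spheroid values (MRPS10, ETS at chr6:42217866-42217894, minus strand, and MRPL58, ETS at chr17:75012457-75012669, plus strand), both ends of the cell line difference (MRPL36, YY1 at chr5:1799855-1799883, minus strand, and MRPS31, ETS at chr13:40771196-40771242, minus strand) and one of the few with NRF1 (MRPS18C at chr4:83455912-83455940, plus strand).
MRPS34: tCTTCCGGtgaCTTCCGGccggaccgctg
MRPS10: ccgctgtaaccCCGGAAGcaatcctgaga
MRPL58: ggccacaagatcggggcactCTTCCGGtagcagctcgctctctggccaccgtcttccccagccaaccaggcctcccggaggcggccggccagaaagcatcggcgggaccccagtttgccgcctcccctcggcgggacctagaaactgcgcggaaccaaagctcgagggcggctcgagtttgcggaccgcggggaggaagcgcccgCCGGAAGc
MRPL36: ccccccccgcCGCCATCTTccttcctggc
MRPS31: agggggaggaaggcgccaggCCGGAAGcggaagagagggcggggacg
MRPS18C: gaaaggtgctGCGCATGCGtattgaaaaa

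Spheroid values were also set beside these motifs. The median spheroid difference of members with the ETS motif was -0.28 (HCT116) and -0.75 (LOVO), against -0.30 and -0.63 for members without it. For YY1 it was -0.12 and -0.48 with the motif against -0.32 and -0.75 without. A match in these windows is a description of the letters and not of a bound site. The stretches shown for MRPS34, MRPL36 and MRPS18C overlap annotated exons, so they lie upstream of the RefSeq start but not of every annotated start.

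The comparison of spheroids with adherent cells asked how cultures that the study took as chemoresistant and stem-like differ from adherent cells. In HCT116 the member median was -0.31, against -0.03 over all genes compared. Of the 77 members, 66 were lower in spheroids, whereas 53.4% of all genes were. The differences were small: 14 members were below -0.5 against 13.6% of all genes and 17.7% of the 8146 genes whose mean FPKM reached 5, and 1 was below -1 (MRPL24) against 3.33%. One member was above 0.5 (MRPS6) against 10.7% of all genes. In HCT116 the members thus shared a direction, while the number with a difference past -0.5 was near the background. The counting interval lay below 0 for 54 members, against 35% of all genes and 48.6% of the 8146, and above 0 for 4 (27.2% of all genes). It included 0 for 19 members.

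In LOVO the member median was -0.66, against -0.06 over all genes. Of the 77 members, 72 were lower in spheroids against 53.5% of all genes, 45 were below -0.5 against 25% and 10 were below -1 against 7.85%. One member, again MRPS6, was above 0.5 against 20% of all genes. The interval lay below 0 for 66 members (42% of all genes, 55.3% of the 8146), above 0 for 3 (32.1% of all genes), and included 0 for 8. Genes with higher levels tended to be lower in spheroids in general. Of the 8146 genes that reached a mean of 5 FPKM, 61.5% were lower in HCT116 spheroids (median -0.12) and 63% in LOVO spheroids (median -0.21), where 32.5% were below -0.5. The members' shares of 85.7% and 93.5% lay above these.

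In both lines together, 65 members were lower in spheroids of each, compared with 35.1% of all genes and 45.8% of the 8146 genes. Only 4 were higher in each (MRPS6, MRPL34, MRPL53 and MRPL55), and 8 differed in direction. The LOVO difference was the lower one for 61 members (52.2% of all genes), with a median of -0.32 for LOVO minus HCT116. The 10 members below -0.5 in both lines were MRPL3, MRPL15, MRPL24, MRPL37, MRPL51, MRPL58, MRPS2, MRPS10, MRPS18B and MRPS27, or 13.0% of members against 6.56% of all genes and 10.1% of the 8146 genes. Across the 76 members other than MRPS6, the differences in the 2 lines correlated with r = 0.379 (r = 0.676 with MRPS6), and those of all genes compared with r = 0.302. The scatter of both differences shows the members grouped in its lower left part.

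**Figure D2:**
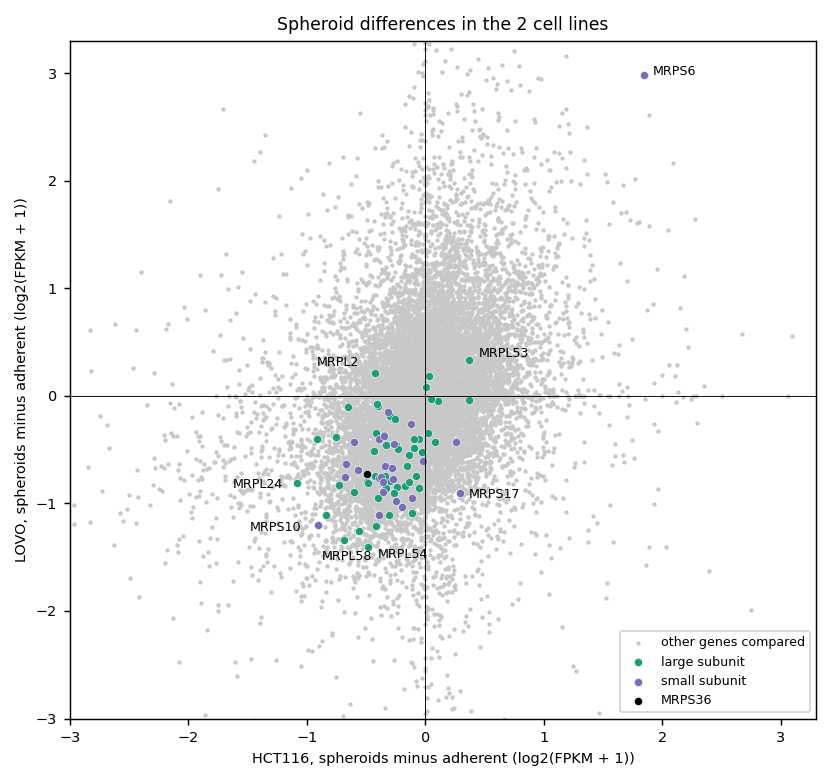
Spheroid difference, as log2(FPKM + 1) of spheroids minus that of adherent cells, in HCT116 (x axis) and LOVO (y axis), with 1 point per gene, members coloured by subunit and other genes compared in grey (95 of these lie outside the axes). Of the 77 members, 65 lie below 0 on both axes, and MRPS6 stands alone at the upper right at 1.84 and 2.98.

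The member with the lowest mean difference was MRPS10, a small subunit protein with a bacterial counterpart whose gene lies on chr6:42206801-42217865 (GRCh38, minus strand) and shares no exonic base. It was at 42.6, 22.3, 45.1 and 19.0 FPKM. Both adherent libraries thus lay well above both spheroid libraries, with differences of -0.91 (log2 ratio interval -1.06 to -0.81) and -1.20 (-1.37 to -1.12). MRPL58, a peptidyl-tRNA hydrolase that became part of the large subunit and can release stalled nascent chains, was at 37.0 and 22.6 FPKM in HCT116 and at 40.4 and 15.3 in LOVO, differences of -0.69 and -1.34. MRPL37, a large subunit protein without a bacterial counterpart, was at 40.5 and 22.3 in HCT116 and at 73.2 and 33.4 in LOVO, differences of -0.83 and -1.11. In these genes, too, the adherent libraries did not overlap the spheroid libraries. MRPS10, MRPL58 and MRPL37 were named for their low spheroid differences, which favours such a separation, and its share over all genes was not computed.

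MRPL24, a protein at the exit of the nascent peptide tunnel, was at 31.5, 14.4, 70.5 and 39.8 FPKM. Its differences were -1.08 and -0.81, but here the lines overlap in level, since LOVO spheroids exceeded adherent HCT116 cells. MRPL15 was at 27.6 and 18.4 in HCT116 and at 54.1 and 22.03 in LOVO (-0.56 and -1.26). MRPL54, a protein of the large subunit stalk region, differed more between the lines, with 15.8 and 11.04 in HCT116 against 28.5 and 10.2 in LOVO (-0.48 and -1.40). The LOVO value of MRPL54 was the lowest of all members. Besides MRPS10, MRPL15, MRPL37, MRPL54 and MRPL58, the members below -1 in LOVO were MRPL1 (-1.21), MRPL30 (-1.11), MRPL47 (-1.09), MRPS7 (-1.03) and MRPS28 (-1.11), with -0.42, -0.31, -0.11, -0.19 and -0.39 in HCT116.

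Values were lower in spheroids for both subunits. The median difference was -0.30 (HCT116) and -0.52 (LOVO) for the 51 large subunit genes, of which 43 and 47 were lower in spheroids. It was -0.34 and -0.69 for the 25 small subunit genes compared, of which 22 and 24 were lower. Proteins with a bacterial counterpart (45 genes, -0.33 and -0.67) and those without (31 genes, -0.27 and -0.63) had close medians. All 10 small subunit proteins without a counterpart were lower in both lines, with medians of -0.35 and -0.72. Around the exit of the peptide tunnel, where the new chain leaves towards the membrane, all 7 genes listed were lower in both lines (-0.43 and -0.79). In the central protuberance, which contacts the small subunit, 5 of 8 were lower in HCT116 and 7 in LOVO (-0.14 and -0.42), and in the stalk, which recruits translation factors, 4 of 5 in each line (-0.40 and -0.40). Of all members, 85.7% were lower in HCT116 and 93.5% in LOVO, and of all genes 53.4% and 53.5%. These groups are small and no difference between them was tested.

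Of 13 members in which mutations are known to cause inherited mitochondrial disease, 12 were lower in HCT116 spheroids and 13 in LOVO spheroids. These shares were near those of all members (85.7% and 93.5%), against 53.4% and 53.5% of all genes. The medians of the 13 were -0.39 and -0.78. The 3 proteins of the MRPS18 family are present in every ribosome at different sites. MRPS18B of the small subunit was at 38.4 and 25.6 FPKM in HCT116 and 79.4 and 49.0 in LOVO. MRPS18A, a large subunit protein, was at 16.5 and 15.3 in HCT116 and 25.4 and 19.0 in LOVO, and MRPS18C at 3.24 and 2.50 and at 4.50 and 2.45. All of them were lower in spheroids, with differences between -0.57 and -0.10 for HCT116 and between -0.69 and -0.40 for LOVO. MRPS36, the dehydrogenase component, had 16.4 and 11.3 FPKM in HCT116 and 14.2 and 8.19 in LOVO (-0.49 and -0.72), within the range of the ribosomal proteins.

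MRPS6, the small subunit counterpart of bacterial S6, was the exception. Its row was at 5.61, 22.7, 7.19 and 63.6 FPKM. The differences were 1.84 and 2.98, or FPKM ratios of 4.05 and 8.85, and both spheroid libraries exceeded both adherent libraries. A member with the highest differences is likely to show such an order, and its share over all genes was not computed. MRPS6 lies on chr21:34073224-34143034 (GRCh38, plus strand), and SLC5A3, the sodium-coupled transporter of the osmolyte myo-inositol, lies within this span on the same strand. Of 4299 exonic bases of MRPS6, 273 are also exonic in SLC5A3 and 413 in any other gene. SLC5A3 was at 5.47 and 43.0 FPKM in HCT116 and at 4.35 and 108 in LOVO, differences of 2.77 and 4.35. The reads on the MRPS6 row numbered 492, 1643, 554 and 5499, and those on SLC5A3 1290, 8362, 904 and 25172. How many reads of the MRPS6 row came from SLC5A3 transcripts was not tested. Of the other 76 members compared, none was above 0.5 in either line on the log2(FPKM + 1) scale. Without the added 1, the HCT116 log2 ratio was 0.63 for MRPL38 (interval 0.20 to 1.06) and 0.60 for MRPL53 (-0.06 to 1.27). MRPS24, which was not compared, differed by 0.92 in LOVO (log2 ratio interval 1.01 to 2.03).

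**Figure D3:**
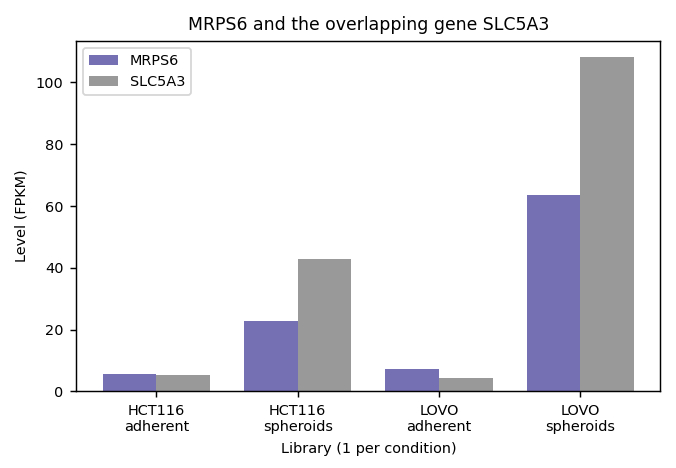
Levels of MRPS6 and of SLC5A3 in FPKM (bars from 0) in the 4 libraries, 1 library per bar and no error bars. Both genes are higher in spheroids than in adherent cells of each line, MRPS6 at 22.7 and 63.6 and SLC5A3 at 43.0 and 108.

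The members that were higher in spheroids of both lines besides MRPS6 had small differences. MRPL34 differed by 0.01 and 0.09 and MRPL55 by 0.03 and 0.18. MRPL53 differed by 0.37 and 0.33 on 36 to 100 reads per library, with intervals that included 0, and CCDC142, which shares 608 exonic bases with it, differed by 0.26 and 0.57. MRPL14, second in level, was nearly level in both lines (0.10 and -0.05). MRPL51 shares 486 exonic bases with NCAPD2 on the opposite strand, and whether the counting used strand is not given. MRPL51 was lower in spheroids by -0.60 in HCT116 and -0.90 in LOVO, and NCAPD2 by -1.73 and -0.38. Over the 39 members that share under 1% of their exonic bases, 35 were lower in HCT116 spheroids and 38 in LOVO spheroids, with medians of -0.34 and -0.66.

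A limma fit over all 14429 genes, with cell line as a covariate and the lines in the place of replicates, left 1 residual degree of freedom. No member and no other gene passed an adjusted p of 0.05 for growth form (percent called 0), and the lowest adjusted p was 0.462. At an unadjusted p under 0.05, 12 members were lower (15.6%, against 6.43% of all genes) and 1, MRPS6, was higher (4.28% of all genes). MRPS10 had a mean difference of -1.05 ± 0.25 (SE), with an unadjusted limma p of 0.00946 and an adjusted p of 0.462. No member can therefore be said to have changed with growth form by this test.

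The ribosome's partners were compared from lists of known function. The 5 proteins of the same ribosome that carry other names were all lower in spheroids of both lines, with medians of -0.33 and -0.56. Among them, DAP3, a GTP-binding small subunit protein, was at 30.5 and 21.5 FPKM in HCT116 and 32.5 and 18.8 in LOVO. GADD45GIP1 differed by -0.33 and -0.67, and PTCD3 (-0.01 and -0.56) and CHCHD1 (-0.01 and -0.50) were at the other end. Of 26 assembly and rRNA processing factors, 20 were lower in HCT116 and 24 in LOVO (-0.26 and -0.44). The lowest was C1QBP, a mitochondrial matrix protein, at 106 and 50.6 FPKM in HCT116 and 92.2 and 32.1 in LOVO (-1.05 and -1.49), followed by MALSU1, a factor of large subunit assembly (-0.29 and -1.01). The highest were MPV17L2 (-0.11 and 0.59) and the GTPase MTG1 (0.26 and -0.03).

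Of 17 mitochondrial translation factors and mRNA-binding proteins, 17 were lower in HCT116 spheroids and 14 in LOVO spheroids (-0.36 and -0.72), against 53.4% and 53.5% of all genes. PDF, the peptide deformylase that trims the first methionine's formyl group, differed by -0.40 and -1.54, and SLIRP, which stabilises mitochondrial mRNAs, by -0.64 and -1.23. C12orf65, a relative of the release factors (-0.18 and 0.22), and the GTPase GUF1 (-0.40 and 0.17) were at the other end. The elongation factor TUFM, chosen for its level after its values were seen, was at 153 and 94.1 FPKM in HCT116 and 148 and 86.1 in LOVO. Of 9 genes for replication and transcription of mitochondrial DNA, 9 were lower in HCT116 and 6 in LOVO (-0.20 and -0.57). The LOVO share of 66.7% was near the 63% of the 8146 genes. The nuclease MGME1 (-0.67 and -0.57) and the DNA-binding protein SSBP1 (-0.43 and -0.80) were lowest, and the polymerase subunits POLG (-0.01 and 0.26) and POLG2 (-0.07 and 0.34) were highest.

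Regulators of mitochondrial biogenesis were less uniform, and 7 of 9 were lower in spheroids in each line. That is 77.8%, against 61.5% (HCT116) and 63% (LOVO) of the 8146 genes. NRF1 was at 7.47, 4.13, 7.80 and 4.10 FPKM (-0.72 and -0.79). GABPB1, a subunit of GABP, differed by -0.48 and -0.71, and its partner GABPA, which carries the ETS domain, by -0.01 and -0.78. MYC was at 107 and 57.2 in HCT116 but at 75.03 and 74.6 in LOVO (-0.89 and -0.01). YY1 (0.07 and -0.50), PPRC1 (-0.49 and 0.08), PPARGC1B (-0.51 and -0.10) and the nuclear receptor ESRRA (-0.68 and 0.36) differed mainly in one line or in opposite directions. The coactivator PPARGC1A was at 0.00451 and 0.0329 in HCT116, on 1 and 6 reads, and at 5.36 and 2.73 in LOVO, and passed the filter through LOVO alone. NRF1 was thus the only one of these 9 below -0.5 in both lines. That is 11.1%, near the 10.1% of the 8146 genes and above the 6.56% of all genes. GABPB1 was close to this cut, with log2 ratios without the added 1 of -0.65 and -0.85. Whether any regulator acted on the members was not tested.

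Next to the mitochondrial ribosome, the 79 nuclear genes of the respiratory chain had medians of -0.27 and -0.61, close to those of the members. The 84 genes of cytosolic ribosomal proteins were lower still, at -0.48 and -1.16. The 13 mRNAs encoded by mitochondrial DNA, which the mitochondrial ribosome translates, went another way. All 13 were higher in HCT116 spheroids (median 0.38), whereas in LOVO 5 were higher and 8 lower (-0.05). Of all genes, 53.4% were lower in HCT116 spheroids and 53.5% in LOVO spheroids.

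**Figure D4:**
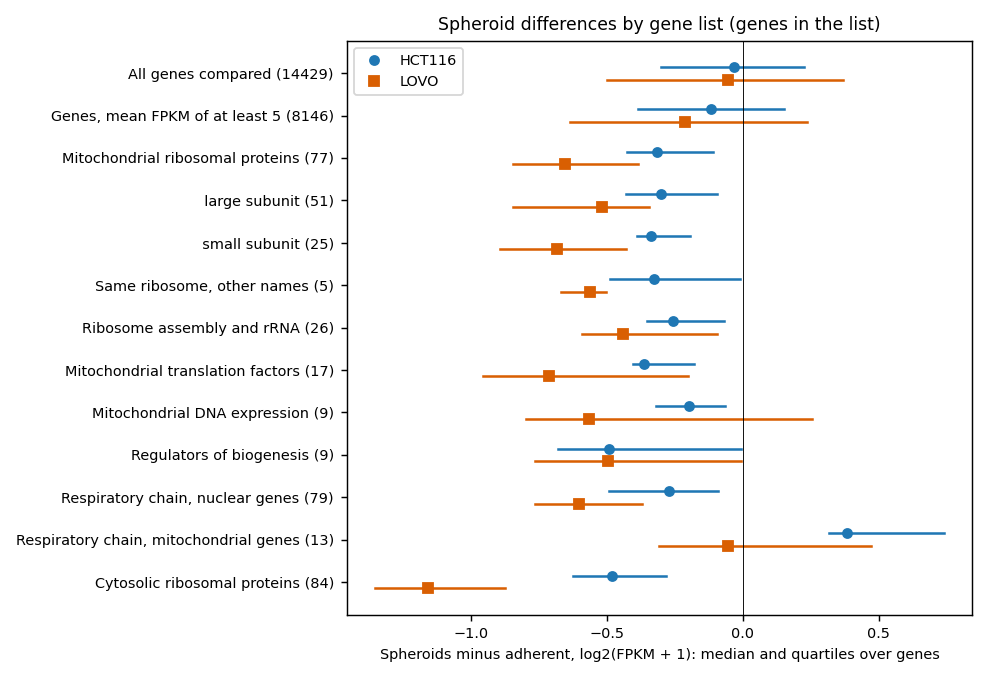
Spheroid difference, as log2(FPKM + 1) of spheroids minus that of adherent cells, for each list of genes, with the median (symbol) and the quartiles over genes (line) in HCT116 and LOVO and the number of genes compared in brackets. The mitochondrial ribosomal proteins lie at -0.31 and -0.66, between all genes (-0.03 and -0.06) and cytosolic ribosomal proteins (-0.48 and -1.16), and the mitochondrially encoded mRNAs lie at 0.38 and -0.05.

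The comparison of the lines used the same 4 libraries. Between adherent cells, the member median of LOVO minus HCT116 was 0.52 (0.07 over all genes), and 40 members were above 0.5 against 32.7% of all genes, with 5 below -0.5 against 27.9%. Between spheroids the median was 0.11 (0.04 over all genes), with 21 above 0.5 against 31.1% and 14 below -0.5 against 28.3%. Members were thus mostly higher in LOVO when cells were adherent. In spheroids their median and their share above 0.5 (27.3%) were near the background, whereas their share below -0.5 (18.2%) was under it. Adherent LOVO cells had the highest of the 4 values for 53 of 77 members (33.2% of all genes) and the lowest for 0 (26.5%).

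For the cell line coefficient of the limma fit, the growth forms stood in the place of replicates, with 1 library each per line. Its p-values therefore do not measure the spread between cultures of the same line and form. In this fit, 10 members passed an adjusted p of 0.05 for cell line (13.0% of them, against 24.7% of all genes). There were 7 higher in LOVO, namely MRPL36, MRPL24, MRPS11, MRPS30, MRPL23, MRPL40 and MRPL28. MRPL36, the counterpart of bacterial L36, was at 18.1 and 16.3 FPKM in HCT116, adherent and spheroids, and at 53.9 and 36.6 in LOVO, a mean difference of 1.32 ± 0.26 (SE, limma adjusted p = 0.0276). Both LOVO libraries exceeded both HCT116 libraries, in a member that was named for its high line difference. That choice favours such an order, and its share over all genes was not computed. The 3 lower in LOVO were MRPL10, MRPS23 and MRPS31. MRPL10, the base of the stalk, was at 43.0 and 32.4 in HCT116 and 16.4 and 15.3 in LOVO, -1.18 ± 0.25 (SE, limma adjusted p = 0.0323). MRPS23 was at 16.9 and 13.0 in HCT116 and 8.69 and 4.22 in LOVO, and MRPS31 at 13.7 and 13.5 in HCT116 and 7.38 and 4.49 in LOVO. Next among the low values, MRPL4 (16.7, 9.48, 7.38 and 5.41 FPKM, mean difference -0.89, limma adjusted p = 0.0628) and MRPL42 (8.19, 7.88, 5.10 and 3.62, mean difference -0.77, limma adjusted p = 0.0888) did not pass.

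**Figure D5:**
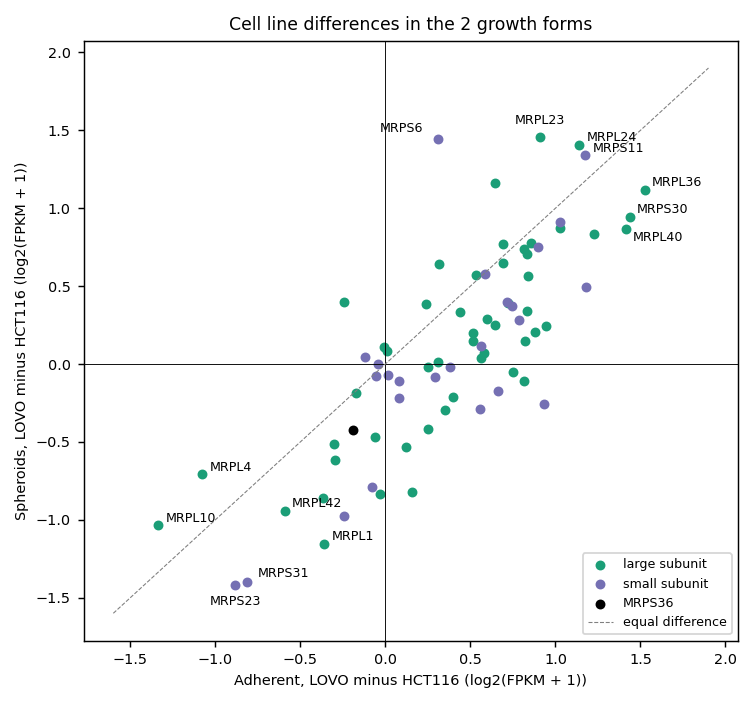
LOVO minus HCT116 on the log2(FPKM + 1) scale in adherent cells (x axis) and in spheroids (y axis), 1 point per member, coloured by subunit, with a dashed line where the 2 differences are equal. Most points lie below the line and right of 0 (medians 0.52 and 0.11), and MRPL10, MRPS23 and MRPS31 lie at the lower left.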

How the data were processed

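Gene FPKM values of 4 libraries were used as deposited by the authors, without replicates. Libraries were made with a SMARTER mRNA-Seq kit. The aligner and counter are not given in the sources used here. The labels name a mouse build, but all 58735 gene identifiers, and the length and coordinates of all 78 members, matched human GENCODE 29. FPKM times gene length gave whole multiples of 1 step per library (100% of values within 0.01), from which reads were recovered for counting intervals (Clopper-Pearson, 95%). Differences were taken on log2(FPKM + 1) for genes whose mean FPKM reached 1. limma 3.58.1 (R 4.3.3, eBayes with trend, Benjamini-Hochberg over 14429 genes) was fitted with growth form and cell line. On simulated data with 200 changed genes per factor it recovered 196 with 19 false calls for growth form. For cell line it recovered 194 with 24 false calls. The changed genes had median estimated differences of 1.70 and 1.67, larger in size than any member's except that of MRPS6. The simulation thus does not cover differences as small as the members'. It also gave each changed gene the same shift in both lines, or in both growth forms, with only slight noise beyond counting error. In the real data the spheroid differences of all genes in the 2 lines correlated with r = 0.302. The recovery in the simulation therefore does not carry over to these data. The study's own test needs counts of replicated groups. Members and lists were chosen with earlier results of these data known. Named were the 6 highest and 6 lowest members by mean spheroid difference and by line difference, those past 1 in a line, the 3 highest and 3 lowest by level, those not compared, MRPS6, the MRPS18 genes and MRPS36, and of each list the 2 extremes at each end and every regulator. No replicate pairing exists. P-values measure only the spread between single libraries of 2 lines or, for cell line, of 2 growth forms. Alternatives were other pseudocounts, filters and scalings, and leaving out MRPS6. Promoters were taken from RefSeq (GRCh38.p14).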

Additional observations from a re-analysis of the deposited data

Results flagged for a closer look

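The spheroid difference had opposite signs in HCT116 and LOVO for 8 of 77 members, and the difference between the lines was not tested, since each rests on 1 library per condition. MRPS17, a small subunit protein, differed by 0.29 in HCT116 (2.48 and 3.25 FPKM) and by -0.90 in LOVO (5.63 and 2.56), on 109 to 218 reads per library, with counting intervals of the log2 ratio of 0.01 to 0.78 and -1.48 to -0.80. MRPS14 differed by 0.26 and -0.43. MRPL2, whose bacterial counterpart is part of the peptidyl transferase region, went the other way, with -0.42 in HCT116 (23.0 and 16.9 FPKM) and 0.21 in LOVO (19.3 and 22.6). MRPL50 differed by 0.085 and -0.43 and MRPL57 by 0.020 and -0.35. The remaining ones were small in at least one line: MRPL14 (0.10 and -0.052), MRPL38 (0.37 and -0.041) and MRPL46 (0.045 and -0.027). For MRPS17, MRPS14 and MRPL2, both counting intervals excluded 0. These genes share exonic bases with others: MRPS17 27.0% on the same strand, with AC092647.5 (471 bases, at most 3 reads in a library) and with NIPSNAP2 (112 bases, differences of -0.47 and -1.01). On the opposite strand, MRPL2 shares 373 bases with KLC4 (0.28 and 1.00) and MRPS14 351 with CACYBP (-0.60 and -0.67). The part of these genes in the 3 results was not tested.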

How the results depend on the processing

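Counts and medians were recomputed with pseudocounts of 0.1 and 0.01, without the filter, with a minimum mean FPKM of 5, rescaled to TPM, with TMM-style scaling, centred on the median gene, without MRPS6, with limma without its trend or covariate, and over the members that share under 1% of exonic bases (chosen after seeing the data). Single members were recomputed under the scaling, pseudocount and filter settings only, and limma counts under those that apply. Members lower in spheroids numbered 64 to 66 in HCT116 and 64 to 72 in LOVO. These counts leave out the 39 members sharing under 1% of exonic bases. They come from sets of 72 to 78 members, so a lower count can reflect a smaller set. The medians ranged from -0.35 to -0.27 and from -0.70 to -0.49. The TPM rescaling moved the median of all genes in LOVO from -0.06 to 0.10 and that of the members to -0.49, and for LOVO minus HCT116 between spheroids it moved the median of all genes from 0.04 to 0.26 and that of the members to 0.34, with 20 members below 0 in place of 33. Members above 0.5 in HCT116 numbered 3 with either smaller pseudocount or TPM and 0 without MRPS6, against 1. In LOVO they numbered 2 without the filter or with TPM and 0 without MRPS6. Calls for cell line by limma fell from 10 to 0 without the filter, where 58735 genes were tested, and to 0 without growth form as covariate, and numbered 14 with TPM. The limma fit for growth form set adherent cells and spheroids side by side within a line. Without cell line as covariate, 2 in place of 12 members were lower at an unadjusted p under 0.05. No analysis paired by replicate was possible because no condition has more than 1 library, so none could be left out. Of the values of single named members, 859 stayed within the counting error and 77 moved beyond it, 45 of these under TPM, and 0 reversed a difference past 0.5. Depth limits MRPS24, MRPL53 and MRPL38.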
